A study of Homo sapiens with 6 samples.

Results

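Base excision repair was followed gene by gene in RNA-seq libraries of A549 cells, an established line from a human lung adenocarcinoma. The 29 genes described were listed by name as the enzymes and partners of this pathway, by a rule that uses no measured value: 11 glycosylases, 2 AP endonucleases, 8 end processing, scaffold and PARP proteins, 6 polymerases and ligases, and 2 chromatin and single-strand binding proteins. All 29 were found among the 32192 genes of the count table, and all 29 passed the filter on low counts. Cells of the APEX1-OE group (n = 3 libraries) had been transiently transfected with the vector pIRES-hrGFP-1a carrying APEX1 with a FLAG tag, and cells of the Ctrl group (n = 3 libraries) with a control plasmid. The labels name no mutation, drug or time series, and they do not say whether the replicates came from separate cultures, so the p-values below measure the spread between these libraries. Each library is a bulk sample of a transfected culture, so a level raised in every cell cannot be told apart from a level raised further in some of them.

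Base excision repair removes small base lesions, such as oxidized, alkylated or deaminated bases, and also mends single-strand breaks. A glycosylase cuts the damaged base from the sugar, an AP endonuclease cuts the backbone at the abasic site, the ends are trimmed, a polymerase fills the gap and a ligase seals it. APEX1 is the main AP endonuclease of human cells, and it therefore stands between the many glycosylases that feed the pathway and the shared enzymes that finish the repair.

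The libraries held 28131955 to 41009197 gene counts each, and the closest pair differed by more than sampling noise (chi-square per degree of freedom 3.63). In log2 CPM (counts scaled to the library size), the first principal component held 72.6% of the variance and did not follow the condition. Ctrl replicates 1 and 2 lay with APEX1-OE replicate 1 on one side of it, called set A here, and Ctrl replicate 3 lay with APEX1-OE replicates 2 and 3 on the other, called set B. These sets were read from the data and are no groups of the study, and the labels name no batch. Each set holds both conditions but in unequal numbers, so estimates from the condition alone carry part of any difference between the sets. The test of the conditions was therefore also run with the set as a second term. The keratins KRT8 and KRT18 stood at a mean of 3069 and 2517 FPKM (fragments per kilobase, scaled to the mapped reads) in Ctrl, whereas the epithelial surface marker EPCAM stood at only 0.317 FPKM. The genes ALDH1A1 and AKR1B10, known to be high in A549, stood at 1199.8 and 806 FPKM in Ctrl. Among markers of blood, endothelial and stromal cells, CD3E, PECAM1, CDH5 and COL3A1 had mean FPKM values of at most 0.0667 in either group, LUM reached 0.347, and PTPRC had at most 1 count in a library.

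APEX1 (ENSG00000100823.11, chr14:20455191-20457772 of GRCh38, plus strand) has a coding sequence of 957 bases with its start codon in exon 2 of the 5 exons of its main transcript and its stop codon in exon 5. The plasmid carries this coding sequence up to the stop codon, with the FLAG tag fused in its place. The reference bases at both ends of the coding sequence are shown. A read that lies within the coding bases before the stop codon does not tell a plasmid transcript from a chromosomal one. The stop codon itself is not in the plasmid, so a read through it would. The first line covers chr14:20455646-20455675 and the second chr14:20457479-20457508, both on the plus strand of GRCh38, and capitals mark the start and the stop codon.
APEX1 coding start: ATGccgaagcgtgggaaaaagggagcggtg
APEX1 coding end: tgtcctatcaccctatacctagcactgTGA

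APEX1 RNA was far higher in the transfected cells of the APEX1-OE group. Its FPKM was 618, 680.3 and 768 in the APEX1-OE libraries against 129, 126 and 124 in the Ctrl libraries. All 3 APEX1-OE values lay above all 3 Ctrl values, at a mean of 689 ± 75.7 (SD, n = 3) against 126 ± 2.50 (SD, n = 3), and the exact two-sided permutation test gave p = 0.1, the smallest that 3 against 3 allows. In edgeR's quasi-likelihood fit of the counts, the log2 fold change was 2.42 ± 0.171 (SE), with a 95% interval of 2.03 to 2.82 and an adjusted p of 0.00809. This interval corresponds to a fold of 4.09 to 7.05. APEX1 was the only gene called of the 29, and also the only gene called of all 16971 tested, so that calls made up 0.00589% of the genes. The call depended on 4 of the libraries: the adjusted p rose to 0.118 without APEX1-OE replicate 2, to 0.0674 without APEX1-OE replicate 3, to 0.210 without Ctrl replicate 1 and to 0.207 without Ctrl replicate 2, while the log2 fold change stayed between 2.36 and 2.46 over all 6 omissions. Within set A the APEX1-OE library lay 2.39 above the mean of the Ctrl libraries on the log2 CPM scale, and within set B the APEX1-OE mean lay 2.54 above the Ctrl library. The genes beside APEX1 on the chromosome did not pass the test: OSGEP had a log2 fold change of -0.07 ± 0.229 (SE), and TMEM55B of 0.06 ± 0.299 (SE). With the set as a term they stood at 0.05 ± 0.120 (SE) and 0.26 ± 0.106 (SE), and TMEM55B then had an unadjusted p of 0.0260 and an adjusted p of 0.382 from edgeR. With an added offset for GC content and length TMEM55B stood at 0.27 ± 0.0829 (SE), with an unadjusted p of 0.00544 and an adjusted p of 0.225 from edgeR. In these fits 11.6% and 12.6% of all genes had an unadjusted p under 0.05, and the limits of both fits are given further on.

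The place of APEX1 within the pathway shifted accordingly. Among all genes of the FPKM table it ranked 432nd, 430th and 377th in the Ctrl libraries, and 89th, 74th and 68th in the APEX1-OE libraries. Already in Ctrl it was the most abundant of the 29 transcripts, with 28.0% ± 0.995 (SD, n = 3) of their summed FPKM. In APEX1-OE its share was 67.7% ± 2.96 (SD, n = 3). The other 28 genes summed to 325 ± 21.7 FPKM in Ctrl and to 327 ± 10.4 FPKM in APEX1-OE (SD, n = 3 each), a difference below the spread of both groups. The transcript ratio of APEX1 to POLB, the gap-filling polymerase of the next step, was thus 23.1 ± 3.90 (SD, n = 3) in Ctrl and 128 ± 37.9 (SD, n = 3) in APEX1-OE. Against the summed FPKM of the 11 glycosylases, which make the abasic sites that APEX1 cuts, the ratio was 0.797 ± 0.122 (SD, n = 3) in Ctrl and 4.38 ± 1.08 (SD, n = 3) in APEX1-OE. The POLB ratio also differed between the library sets. It was 171 in APEX1-OE replicate 1 against 111 and 101 in replicates 2 and 3. In Ctrl it was 24.9 and 25.8 in replicates 1 and 2 against 18.6 in replicate 3. Plasmid RNA adds reads only over the coding sequence, while FPKM is scaled to a fixed length per gene. The APEX1 levels of the groups are therefore not on quite the same scale. These are ratios of RNA levels, and protein was not measured in the libraries.

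**Figure D1:**
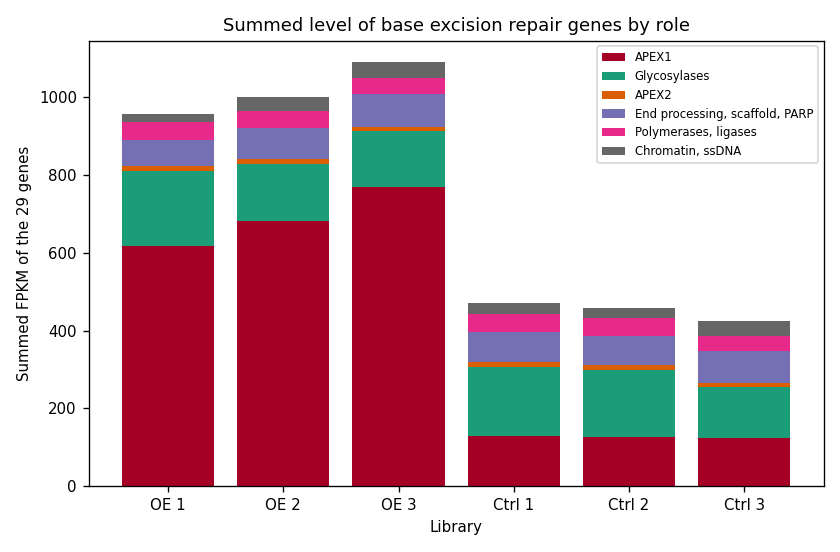
Summed FPKM of the 29 genes in each library (OE 1 to 3 are the APEX1-OE replicates), stacked by role with APEX1 in dark red. The total lies between 957 and 1090.5 in the APEX1-OE libraries and between 424 and 471 in the Ctrl libraries, and the part above APEX1 spans 300.5 to 342 over all 6.

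In Ctrl the pathway covered a wide range of levels in FPKM, which is divided by transcript length. Differences of GC content and of shared exon bases, described further on, are not removed from these levels. Of the 29 genes, 3 had a mean above 25 FPKM (APEX1, MPG and NTHL1), 9 lay between 10 and 25, 12 between 2 and 10, and 5 below 2 (TDP1, MBD4, NEIL3, NEIL1 and APLF). MPG, at 53.9 ± 13.3 FPKM (SD, n = 3), and NTHL1, at 53.9 ± 11.7 (SD, n = 3), could not be ordered, since the distance between their means was far below their spread. Behind them UNG at 20.8 ± 0.871 and PARP1 at 20.5 ± 2.55 (SD, n = 3) did not differ beyond their spread either. The lowest transcript was APLF, at 0.193 ± 0.0751 FPKM (SD, n = 3).

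**Figure D2:**
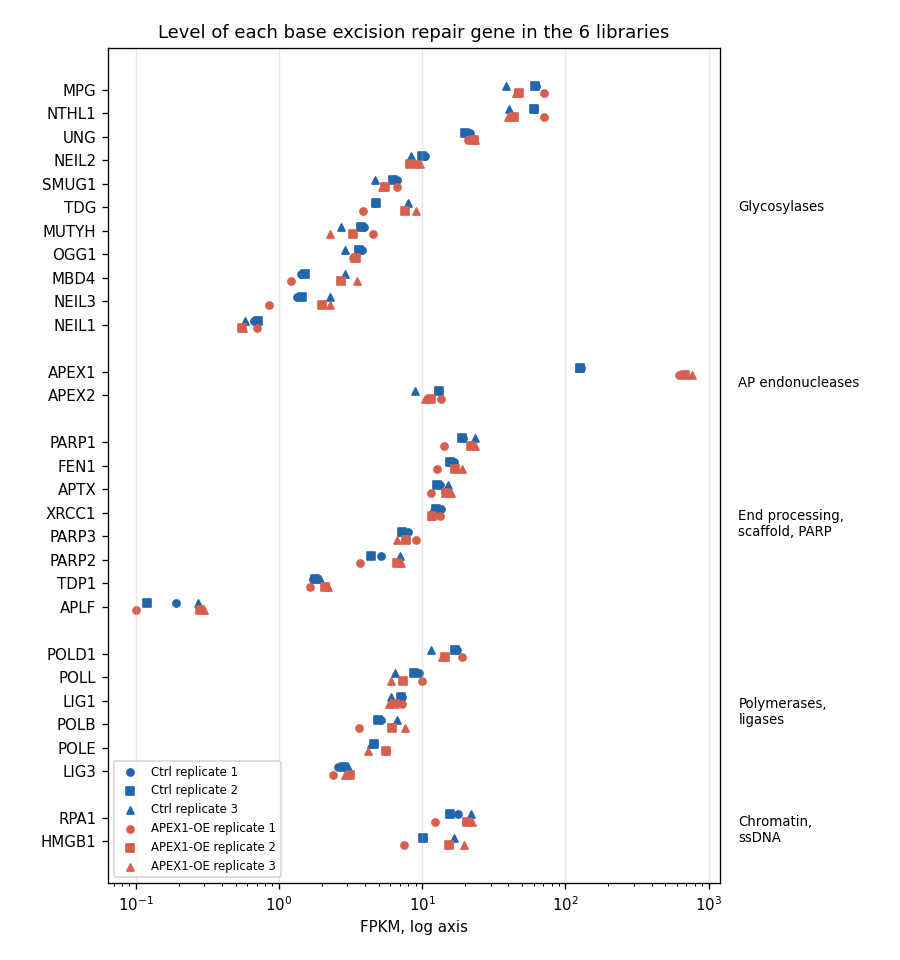
FPKM of each gene in each of the 6 libraries on a log axis, with Ctrl in blue and APEX1-OE in red, the symbol giving the replicate, and the genes grouped by role and ordered by their Ctrl mean. Only the APEX1 points separate by colour, with 124 to 129 FPKM in Ctrl and 618 to 768 in APEX1-OE, and the other 28 genes have overlapping colours.

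Beside APEX1, no gene of the pathway passed the test. None of the other 28 had an adjusted p under 0.05, none had an unadjusted p under 0.05 (the lowest was 0.440, for MBD4) against 0.695% of all genes tested, and the CPM values of the groups overlapped in all 28, whereas they did not overlap in 3.39% of all genes. Where no gene changes, a test at 0.05 would pass a share of 0.05, and 0.695% lies well below that. The lack of p-values under 0.05 among the 28 therefore does not show that they were unchanged. By sign, 13 lay higher and 15 lower in APEX1-OE. The log2 fold changes ran from -0.12 (NEIL1) to 0.31 (MBD4), and their median was -0.01, beside 0.03 over all genes tested. The 95% interval stayed within a 2-fold change in either direction for 26 of the 28, all but MBD4 and APLF, beside 66.4% of all genes, and within a 1.5-fold change for 8 (APTX, FEN1, LIG3, PARP1, RPA1, TDP1, UNG and XRCC1), beside 15.3% of all genes. For the rest the interval reached past 1.5-fold on at least the upper or the lower side. In FPKM, the difference between the group means was smaller than the SD of both groups for 25 of the 28, and larger than the smaller SD for UNG, TDP1 and POLE. The standard errors lay between 0.177 (UNG) and 0.404 (APLF), with a median of 0.27 over the 28 and of 0.30 over all genes.

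**Figure D3:**
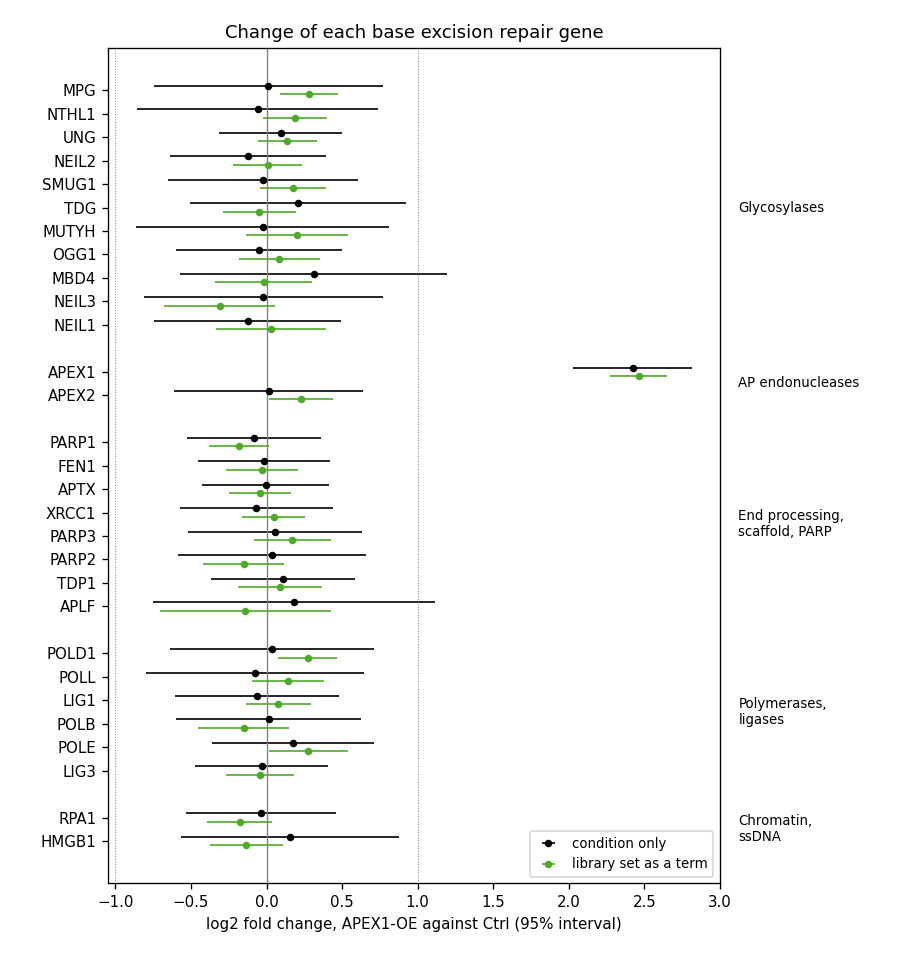
Log2 fold change of APEX1-OE against Ctrl for each gene with its 95% interval, from the edgeR fit with the condition only (black) and with the library set as a second term (green); dotted lines mark a 2-fold change. APEX1 stands at 2.42, and the black intervals of the other 28 genes all contain 0.

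Of the 11 glycosylases, 4 had a higher and 7 a lower estimate in APEX1-OE, and they summed to 161 ± 26.7 FPKM in APEX1-OE and to 161 ± 25.2 FPKM in Ctrl (SD, n = 3 each). MPG, which removes alkylated purines and whose Ctrl mean was close to that of NTHL1, stood at 70.4, 47.7 and 44.9 FPKM in APEX1-OE and 62.2, 61.0 and 38.5 in Ctrl. The highest value came from APEX1-OE replicate 1, but the other APEX1-OE values lay below those of Ctrl replicates 1 and 2, so the groups overlapped, and its log2 fold change was 0.01 ± 0.328 (SE). The thymine glycosylase TDG, which acts on thymine and other pyrimidines opposite guanine, stood at 3.87, 7.59 and 9.03 FPKM in APEX1-OE and at 4.65, 4.73 and 7.93 in Ctrl. The lowest and the highest value were both from APEX1-OE, and the log2 fold change was 0.21 ± 0.309 (SE). MBD4, a glycosylase for mismatches at methylated CpG sites, had the largest estimate of the 28, with 1.22, 2.71 and 3.51 FPKM in APEX1-OE and 1.43, 1.51 and 2.91 in Ctrl. Again the APEX1-OE values lay on both sides of the Ctrl values, and the interval of its fold, 0.672 to 2.29, reached beyond a doubling. With the library set as a term, the log2 fold change of MBD4 was -0.02 ± 0.151 (SE). NEIL1, which excises oxidized pyrimidines, was the lowest glycosylase, at 0.700, 0.550 and 0.560 FPKM in APEX1-OE and at 0.670, 0.710 and 0.580 in Ctrl. Its estimate of -0.12 ± 0.268 (SE) was the lowest of the 28 genes.

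The remaining glycosylases showed as little. OGG1, the enzyme for 8-oxoguanine, had a mean of 3.37 ± 0.0872 FPKM in APEX1-OE and of 3.45 ± 0.476 in Ctrl (SD, n = 3 each). MUTYH, which removes adenine opposite 8-oxoguanine, had a mean of 3.38 ± 1.15 against 3.46 ± 0.643 FPKM. UNG, the main uracil glycosylase, had the tightest estimate, a log2 fold change of 0.10 ± 0.177 (SE) with a fold interval of 0.806 to 1.42. For SMUG1, another uracil glycosylase, and for NTHL1, NEIL2 and NEIL3, which remove oxidized bases, the log2 fold changes lay between -0.12 (NEIL2) and -0.02 (NEIL3).

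APEX2 (chrX:55000363-55009057 of GRCh38), the paralog of APEX1 and a much weaker AP endonuclease, did not pass the test. Its FPKM was 13.5, 11.4 and 10.4 in APEX1-OE and 12.8, 13.04 and 8.94 in Ctrl. The groups overlapped, with a log2 fold change of 0.01 ± 0.272 (SE) and a fold interval of 0.653 to 1.56, while the ratio of means was 5.45 for APEX1 and 1.02 for APEX2.

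The 8 end processing, scaffold and PARP genes divided evenly, 4 higher and 4 lower, with log2 fold changes from -0.08 (PARP1) to 0.18 (APLF). PARP1, the main sensor of strand breaks, was the most abundant of them, at 14.2, 22.0 and 23.2 FPKM in APEX1-OE and at 19.2, 18.9 and 23.5 in Ctrl. Only APEX1-OE replicate 1 stood apart from the rest, on the low side, and the fold interval was 0.694 to 1.28. APLF, which binds poly(ADP-ribose) at breaks, stood at 0.10, 0.280 and 0.300 FPKM in APEX1-OE and at 0.190, 0.120 and 0.270 in Ctrl. Its counts lay between 18 and 69 in a library, and its fold interval, 0.594 to 2.17, reached past 2-fold on the upper side. XRCC1, the scaffold that holds the polymerase and the ligase at a break, had a mean of 12.1 ± 0.954 FPKM against 12.7 ± 0.909 in Ctrl (SD, n = 3 each). FEN1, the flap endonuclease of long-patch repair, had 16.2 ± 3.18 against 16.04 ± 0.502 FPKM. APTX and TDP1, which clean blocked DNA ends, had log2 fold changes of -0.01 ± 0.182 and 0.11 ± 0.208 (SE). PARP2 lies near APEX1, at chr14:20343615-20357904, and had a log2 fold change of 0.03 ± 0.270 (SE). For PARP3, the remaining PARP of the list, the estimate was 0.06 ± 0.249 (SE).

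Among the 6 polymerases and ligases the sum was 43.7 ± 3.75 FPKM in APEX1-OE and 43.2 ± 4.52 FPKM in Ctrl (SD, n = 3 each). POLD1, the catalytic subunit of polymerase delta, was the most abundant, at 19.0, 14.4 and 13.8 FPKM in APEX1-OE and at 17.5, 16.8 and 11.5 in Ctrl. The highest and the lowest value came from different conditions but the ranges overlapped, and the log2 fold change was 0.04 ± 0.291 (SE). POLE, the catalytic subunit of polymerase epsilon, stood at 5.61, 5.61 and 4.18 FPKM in APEX1-OE and at 4.59, 4.64 and 4.39 in Ctrl. Here 2 of the 3 APEX1-OE values lay above all Ctrl values and the other lay below them, which gave a log2 fold change of 0.18 ± 0.232 (SE). POLB, the main gap-filling polymerase, had a log2 fold change of 0.01 ± 0.264 (SE), and POLL, another polymerase of the same family, of -0.08 ± 0.312 (SE). LIG3, the ligase partner of XRCC1 and the lowest of this role, stood at 2.39, 3.12 and 2.90 FPKM in APEX1-OE and at 2.59, 2.86 and 3.02 in Ctrl. The APEX1-OE values enclosed the Ctrl values, with a fold interval of 0.720 to 1.33. LIG1, which seals long-patch repair and Okazaki fragments, had an estimate of -0.06 ± 0.236 (SE).

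RPA1, the large subunit of the single-strand binding protein, stood at 12.4, 20.5 and 22.4 FPKM in APEX1-OE and at 17.7, 15.7 and 21.9 in Ctrl, with a log2 fold change of -0.04 ± 0.216 (SE). HMGB1, a chromatin protein that can stimulate long-patch repair, stood at 7.47, 15.4 and 19.5 FPKM in APEX1-OE and at 10.1, 10.2 and 16.7 in Ctrl. Both genes had their lowest value in APEX1-OE replicate 1 and their highest in APEX1-OE replicate 3, and HMGB1 had a log2 fold change of 0.16 ± 0.312 (SE). The count of HMGB1 is less certain because of copies: 48 pseudogenes carry its name in GENCODE 44, of which 24 are in the count table. The highest counts of these copies summed to 323, beside 1997 to 6039 counts for HMGB1 in a library. The authors counted unique alignments only, so reads that match a copy equally well may have been lost.

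The spread within a condition had a pattern. The sets did not overlap for 23 of the 28 genes, beside 66.4% of all genes, and the side on which a gene was higher followed the GC content of its longest annotated transcript. All 6 genes under 45% GC (APLF, HMGB1, MBD4, NEIL3, POLB and TDG) were higher in set B, with a median difference of 0.71 in mean log2 CPM. All 10 genes over 55% GC (LIG1, MPG, NEIL1, NEIL2, NTHL1, PARP3, POLD1, POLE, POLL and XRCC1) were higher in set A, with a median difference of -0.45. Across the 28 genes, the set difference and the GC content gave Pearson's r = -0.91 and Spearman's rho = -0.90, and over the 16746 tested genes with a known GC content r = -0.77. These are descriptions across genes of the same 6 libraries, which are not independent replicates, and the sets were themselves found from the counts of all genes.

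**Figure D4:**
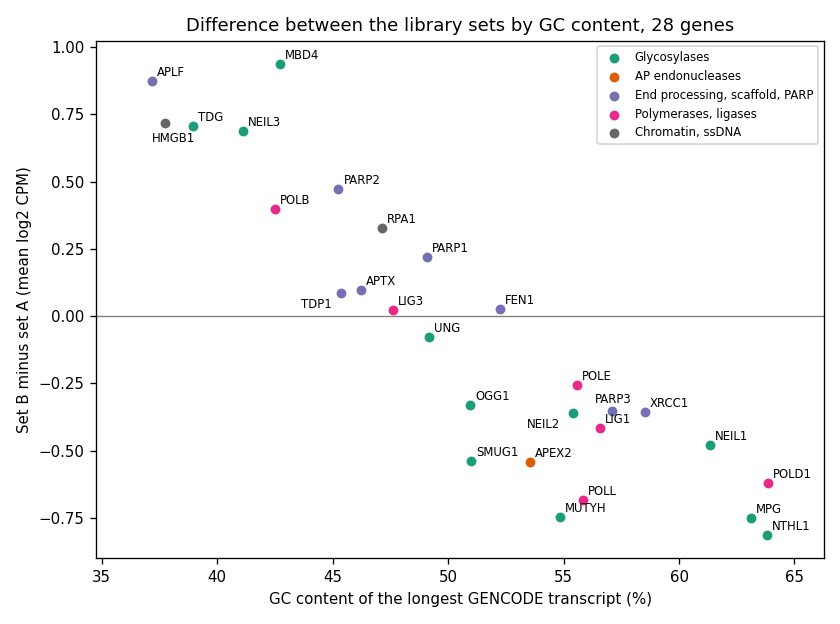
Difference in mean log2 CPM, set B minus set A, against the GC content of the longest GENCODE transcript, for each gene besides APEX1 and coloured by role. The 6 genes under 45% GC lie above 0, and the 10 genes over 55% GC lie below it.

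Of the 28 genes, MBD4 had the widest gap, 1.91-fold higher in set B. NTHL1 lay at the other end, with a set B to set A ratio of 0.569. Inside each condition, the library from the other set stood apart in the same way. Ctrl replicate 3, the Ctrl library of set B, held 1.98 times the MBD4 FPKM of the mean of the other Ctrl libraries and 0.626 times their MPG FPKM. APEX1-OE replicate 1, the APEX1-OE library of set A, held 0.392 times the MBD4 FPKM of the mean of the other APEX1-OE libraries and 1.52 times their MPG FPKM.

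**Figure D5:**
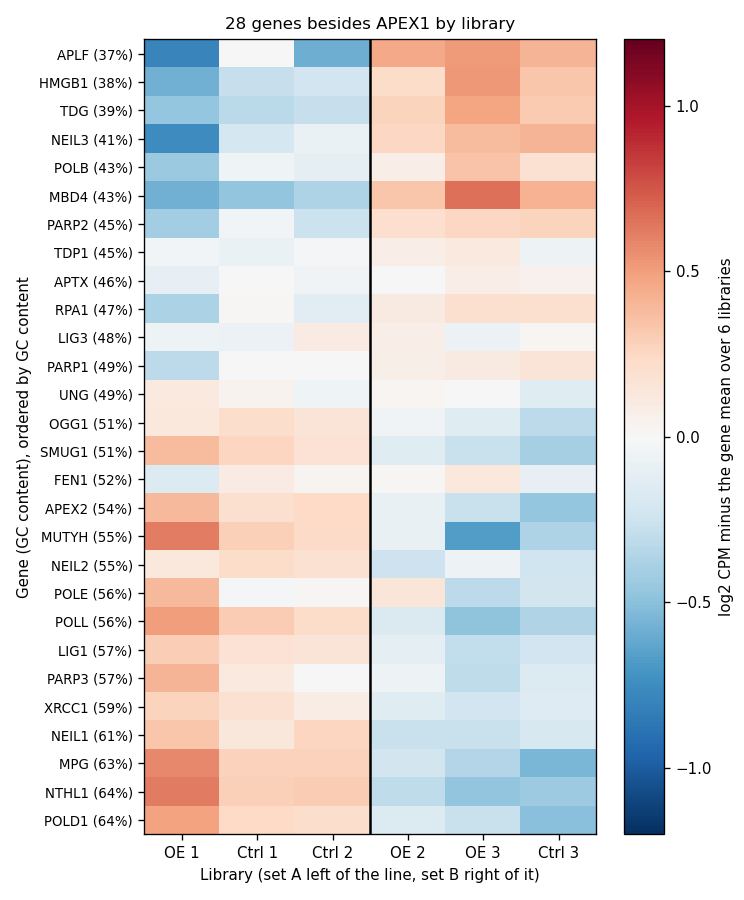
Log2 CPM minus the gene's mean over the 6 libraries, for the 28 genes besides APEX1 ordered by GC content (in brackets), with set A left of the line and set B right of it. Genes under 45% GC are red in set B, genes over 55% GC are mostly red in set A, and APEX1-OE replicate 1 (OE 1) carries the deepest colours of set A.

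With the set as a second term in the fit, the standard errors of the 28 genes fell to between 0.0897 and 0.264, and none of the 28 was called. The sets were read from these same counts, so this fall was largely built in. The p-values and intervals of fits with the set do not allow for that choice. APEX1 kept its call, at a log2 fold change of 2.46 ± 0.0877 (SE) and an adjusted p of 8.13e-10 (edgeR). Of all genes, 0.0236% were called in this fit, and 11.6% had an unadjusted p under 0.05, which 4 of the 28 also had. All 4 of these were higher in APEX1-OE, as were 8.61% of all genes. MPG had a log2 fold change of 0.28 ± 0.0897 (SE), with an unadjusted p of 0.00696 and an adjusted p of 0.356 from edgeR. For POLD1 it was 0.27 ± 0.0914 (SE, adjusted p = 0.361 from edgeR), for POLE 0.27 ± 0.122 (SE, adjusted p = 0.410 from edgeR) and for APEX2 0.23 ± 0.0994 (SE, adjusted p = 0.407 from edgeR). POLE is the single gene of these whose libraries do not all separate by condition in both sets. Several of the largest estimates from the condition alone changed sign in this fit. MBD4 stood at -0.02 ± 0.151, TDG at -0.05 ± 0.113, APLF at -0.14 ± 0.264 and HMGB1 at -0.13 ± 0.113 (SE). In all, 15 of the 28 had another sign than in the fit without the set. The intervals were narrower than those of the condition alone: 26 of the 28 lay within a 1.5-fold change, beside 66.2% of all genes, and the exceptions were NEIL3 and APLF.

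Every APEX1-OE library lay above every Ctrl library of its own set for APEX2, MPG, POLD1, SMUG1 and UNG, 5 of the 28, beside 17.8% of all genes, a share near the background. NEIL3, PARP1 and PARP2 lay below in both sets, 3 of the 28, beside 10% of all genes. For MPG the distance was 0.30 in set A and 0.26 in set B on the log2 CPM scale. PARP1 had distances of -0.31 and -0.06, and NEIL3 of -0.59 and -0.09, larger in set A for both. Adding an offset for GC content and length to the fit with the set left APEX1 the only call among the 29, beside 0.0717% of all genes. The offset was fitted to these same counts and then held fixed, so the p-values of that fit do not allow for it. In that fit 6 of the 28 had an unadjusted p under 0.05, beside 12.6% of all genes. Of these APEX2, MPG, POLE, SMUG1 and UNG were higher in APEX1-OE, beside 7.82% of all genes, and PARP1 was lower. Only 3 libraries make up a set, and no test was made within them.

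The wider pathway gave no called gene either. Further genes of base excision repair and its partners numbered 34, among them the clamp PCNA, the clamp loaders RFC1 to RFC5, PARG and the remaining polymerase subunits. Of these 34, 0 were called by edgeR, beside 0.00589% of all genes, and DESeq2 and limma also called 0. An unadjusted p under 0.05 from edgeR was found for 0 of the 34, beside 0.695% of all genes. The estimates ran from -0.22 ± 0.212 (SE) for RPA3 to 0.65 ± 0.447 (SE) for USP47, a deubiquitinase of polymerase beta, with 21 higher and 13 lower. PCNA, which holds polymerases on DNA, had a mean of 105 ± 37.7 FPKM in APEX1-OE and of 114 ± 7.37 in Ctrl (SD, n = 3 each). With the set as a term, 4 of the 34 had an unadjusted p under 0.05, POLD2, SIRT6 and USP47 among them, beside 11.6% of all genes, and none was called. With the GC offset added, 4 of the 34 had one (HUS1, POLE4, SIRT1 and USP47), beside 12.6% of all genes, and again none was called. Of 11 genes that clean the nucleotide pool or reverse damage directly, 0 were called by edgeR, 0 had an unadjusted p under 0.05 (beside 0.695% of all genes), and DESeq2 and limma called 0. MGMT, which takes alkyl groups off guanine, had the lowest estimate, -0.19 ± 0.337 (SE). With the set as a term, 1 of the 11 had an unadjusted p under 0.05, beside 11.6% of all genes. This was ITPA, which clears deaminated purine nucleotides, at 0.20 ± 0.0914 (SE, adjusted p = 0.413 from edgeR).

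Some members share exon bases with a neighbouring gene, and no source used here says whether the counting used the strand. In GENCODE 44, 14 of the 29 overlap an exon of a protein-coding gene of the table, and 10 of them one on the opposite strand. The largest shares were those of MPG with NPRL3 (30.1% of its exon bases), LIG3 with RFFL (29.1%), NEIL1 with MAN2C1 (26.4%) and OGG1 with CAMK1 (24.9%), so the levels of these genes are less certain. FEN1 shares 49 bases on the same strand with FADS2, which had 16220 to 21809 counts. For APEX1 the overlap was 92 bases with TMEM55B, named PIP4P1 in that annotation. These bases lie past the APEX1 stop codon, outside the coding sequence that the plasmid carries.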

How the data were processed

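The authors made stranded, paired-end mRNA libraries, trimmed the reads (FASTX-Toolkit), aligned these with TopHat2 against GRCh38 and kept unique alignments. The authors deposited raw counts per gene and FPKM values rounded by them, without pooling replicates. How reads were counted (tool, gene annotation, strand) is not given in the sources used.

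From the deposited counts, genes were kept with edgeR's filterByExpr (minimum count 10, minimum total 15), scaled by TMM (factors 0.909 to 1.10), and tested with the robust quasi-likelihood F-test in edgeR 4.0.16 (R 4.3.3), with condition alone in the model, on all 6 libraries, and Benjamini-Hochberg adjustment over 16971 genes at 0.05. The SE is the absolute log2 fold change divided by the square root of F, and intervals are at 95%. The script was tested on simulated counts that held no library sets and no GC effect. This does not show how the test does where they are present. GC content came from the longest GENCODE 44 transcript (98.7% of tested genes, all 29 members). Levels are the deposited FPKM. Total counts per library were 28131955 to 41009197.

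The rule for the members uses no measured value, but the members, the further lists and the library sets were chosen with earlier results of these data known. Values in every library are given for APEX1, APEX2, members with p under 0.05, the 6 other members with the largest estimates, and the highest and lowest of each role in Ctrl. Alternatives used DESeq2 1.42.0, limma 3.58.1 on log2(FPKM + 1) and log2(FPKM + 0.1) for genes with at least 0.1 FPKM in 3 libraries, other scalings and filters, each library left out, the replicate number as a block, the library set as a term, and this plus a GC content and length offset (spline, 5 degrees of freedom). Some genes of the lists are not reported here. Splicing was not analysed here.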

Additional observations from a re-analysis of the deposited data

How the results depend on the processing

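The log2 fold change of APEX1 lay between 2.36 and 2.49 under all 17 alternatives. It was called under all of them except those that left out replicate 2 (2.46) or 3 (2.40) of APEX1-OE, or else replicate 1 (2.45) or 2 (2.45) of Ctrl. The adjusted p from edgeR was then 0.118, 0.0674, 0.210 and 0.207. Leaving out a library gave estimates of 2.36 to 2.46 and 0 to 1 called members, and it moved the adjusted p between 0.00149 and 0.210. Each omission left a group with 2 libraries, and the spread was pooled over both groups, as in every edgeR fit here. None of the other 28 genes was called under any alternative. The number of the 29 with an unadjusted p under 0.05 was 1, and it became 5 with the library set as a term and 7 with the set and the GC offset (APEX1, APEX2, MPG, POLE, SMUG1 and UNG higher, PARP1 lower, lowest adjusted p besides APEX1 0.309 from edgeR), beside 12.6% of all genes in that fit. Signs of the 28 small estimates were not stable: with the set as a term 15 of 28 differed in sign from the fit without it, with the GC offset 12, without a single library 6 to 11, and under the other settings 0 to 4. Without APEX1-OE replicate 1, NTHL1 (-0.49), POLL (-0.42), MUTYH (-0.43) and MPG (-0.35) moved by more than their SE, and the cause was not tested.

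The same-numbered replicates of the groups correlated at 0.61, -0.52 and 0.70 in their deviations from the group means. Pairs within a library set correlated positively and pairs across the sets negatively. These values follow the sets and therefore cannot show whether same-numbered samples were paired. With a replicate block, APEX1 had a log2 fold change of 2.43 and 1 of the 29 genes was called, as without it; over all genes the block moved the calls from 1 to 2, and not every sample correlated best with its own number. Without the filter on low counts 10 genes were called in all, with limma on log2(FPKM + 0.1) 2. APLF had the fewest counts, down to 18 in a library, and the members besides APEX1 reached up to 6039.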
